A study of Mus musculus with 12 samples.

Results

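Glycolysis, lactate transport and the hypoxia response were followed through 38 genes in eye tissue of mice that were fed freely or fasted on alternate days and then injected with sodium iodate (NaIO3) or saline. The genes were chosen by name, as listed members of this module, and not by a threshold on a measured value, although earlier results of these data were known when the list was drawn up. Each of the 38 symbols was found among the 21930 genes of the count table, in 39 rows, because *Aldoa* was listed 2 times. They comprise 17 glycolytic enzymes, 4 regulatory kinases, 7 genes for glucose and lactate carriers, and 10 genes for hypoxia-inducible factor (HIF) and its targets. Since the members were chosen with results known, the tests given for them are values of these libraries and not independent evidence for the list.

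All mice were male wild-type C57BL/6J. AL+PBS mice had food ad libitum and received phosphate-buffered saline (PBS), and IF+PBS mice received PBS after intermittent fasting (IF), which was 24 h without food on alternate days for 12 weeks from 8 weeks of age. AL+NaIO3 and IF+NaIO3 mice had the same diets and received NaIO3 intraperitoneally (25 mg/kg). The diets continued until the tissue was collected, which was after 7 days. NaIO3 is an oxidant that damages the retinal pigment epithelium (RPE) and, through it, the photoreceptors, and a single injection models acute chemical injury. Each group had 3 libraries, and the lowest two-sided p of an exact permutation test between such groups is 0.1. The labels call the tissue RPE with choroid and sclera, whereas the methods describe eye cups and the legends retina.

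Glycolysis splits glucose into pyruvate, and lactate dehydrogenase turns pyruvate into lactate. Photoreceptors run aerobic glycolysis, making lactate from glucose even when oxygen is plentiful, and depend on hexokinase 2 for it. The RPE passes glucose from the choroid to the photoreceptors and takes up their lactate, which it exports through the monocarboxylate transporter MCT3. HIF is a transcription factor that prolyl hydroxylases mark for destruction when oxygen is present, and its targets include most glycolytic enzymes, the lactate exporter MCT4 and *Vegfa*.

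The library totals were between 26364665 and 43046950 counts (median 31822705), so that 3 counts, the limit that a count of 0 allows, came to 0.0697 to 0.114 CPM, the unit in which counts are expressed relative to library size. This limit covers counting error only. Of the genes in the 13 marker lists, only *Ly6g*, a neutrophil marker, stayed within the limit of 3 counts in every library, with 0 in 11 of the 12. Rod markers were abundant in every library, with 8 genes summing to between 19378 and 63553 CPM, so the tissue held retina whatever its label. AL+NaIO3 replicate 3 stood apart. Its rod sum of 19378 CPM was the lowest, while its macrophage and microglia sum (317 CPM), fibroblast sum (1320 CPM), endothelial sum (456 CPM) and melanocyte gene *Pmel* (422 CPM, against 12.1 to 51.3 elsewhere) were the highest of the 12 libraries. AL+NaIO3 replicate 2 had the highest corneal sum (594 CPM) and AL+PBS replicate 2 the highest lens sum (179 CPM). In bulk tissue, fewer cells of a type and less RNA per cell cannot be told apart.

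**Figure D1:**
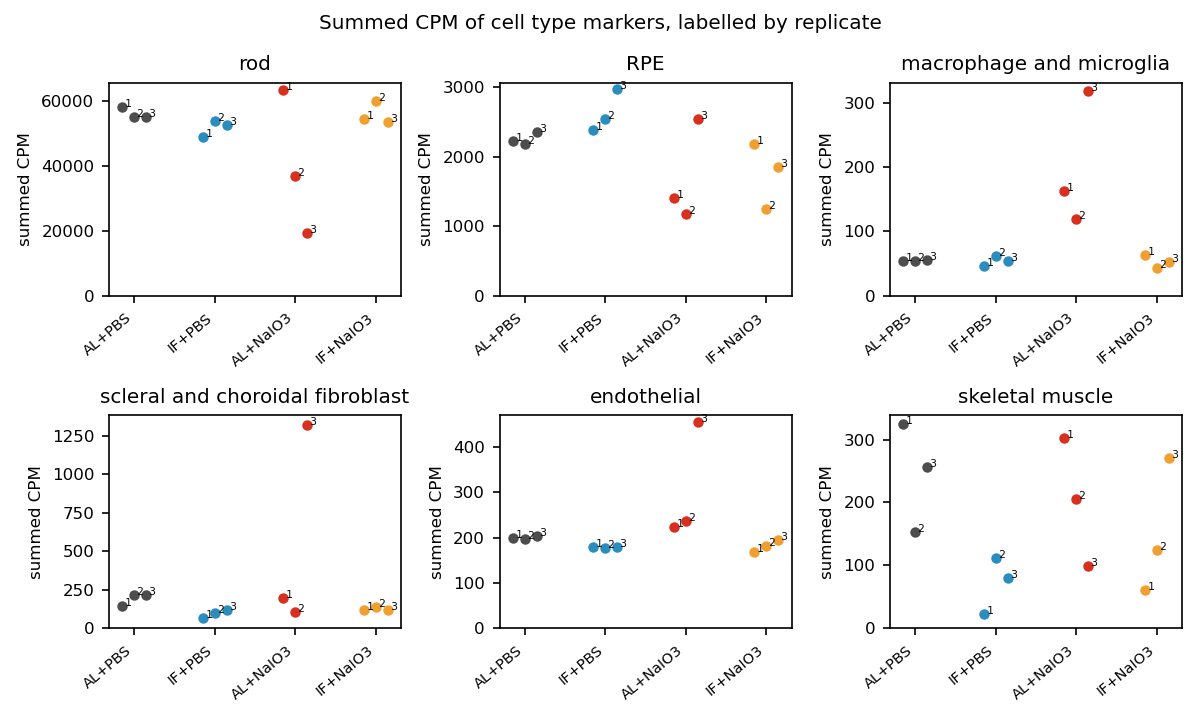
Summed CPM of marker genes of 6 cell types in each library, with groups on the horizontal axis and the replicate number beside each point. AL+NaIO3 replicate 3 had the lowest rod sum (19378 CPM) and the highest macrophage and microglia sum (317 CPM), and the 3 AL+NaIO3 libraries lay above the other 9 for macrophage and microglia markers.

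The sequences upstream of 5 members are shown because edgeR called these members between AL+NaIO3 and AL+PBS, on the 6 libraries of that pair or in the joint fit of the 12. They are the 250 bases before the RefSeq transcription start on GRCm38.p6, in the direction of the gene. Capitals mark the core of the HIF binding element, ACGTG or GCGTG on either strand (CACGT or CACGC when on the other strand), and a CACGTG would count on both strands.

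*Slc16a8*, which encodes MCT3, chr15:79254749-79254998, minus strand, no match.
Slc16a8: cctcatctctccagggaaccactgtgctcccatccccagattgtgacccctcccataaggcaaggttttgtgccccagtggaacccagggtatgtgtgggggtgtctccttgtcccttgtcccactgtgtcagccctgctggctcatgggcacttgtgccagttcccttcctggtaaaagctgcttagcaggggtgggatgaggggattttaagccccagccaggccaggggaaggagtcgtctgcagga
*Slc16a3*, which encodes MCT4, chr11:120948817-120949066, plus strand, 2 matches, with the RefSeq start 587 bases inside the gene as the files delimit it.
Slc16a3: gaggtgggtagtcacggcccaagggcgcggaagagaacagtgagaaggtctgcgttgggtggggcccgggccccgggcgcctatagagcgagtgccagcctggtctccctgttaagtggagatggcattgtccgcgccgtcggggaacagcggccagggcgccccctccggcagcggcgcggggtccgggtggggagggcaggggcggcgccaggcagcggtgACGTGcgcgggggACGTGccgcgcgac
*Hk2*, which encodes hexokinase 2, chr6:82774455-82774704, minus strand, 2 matches.
Hk2: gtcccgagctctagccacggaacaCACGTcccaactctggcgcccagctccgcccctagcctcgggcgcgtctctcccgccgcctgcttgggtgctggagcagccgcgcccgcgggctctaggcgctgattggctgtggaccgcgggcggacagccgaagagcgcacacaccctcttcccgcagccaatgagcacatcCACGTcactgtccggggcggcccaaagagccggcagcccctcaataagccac
*Ak4*, which encodes mitochondrial adenylate kinase 4, chr4:101419039-101419288, plus strand, 2 matches.
Ak4: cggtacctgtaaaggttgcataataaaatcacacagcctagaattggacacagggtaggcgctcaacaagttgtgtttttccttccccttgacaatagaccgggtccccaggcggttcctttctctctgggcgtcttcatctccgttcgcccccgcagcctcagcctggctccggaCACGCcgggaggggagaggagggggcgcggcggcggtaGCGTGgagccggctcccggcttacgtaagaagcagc
*Pfkl*, which encodes the liver-type phosphofructokinase, chr10:78009808-78010057, minus strand, 1 match, with the RefSeq start 276 bases inside the gene as the files delimit it.
Pfkl: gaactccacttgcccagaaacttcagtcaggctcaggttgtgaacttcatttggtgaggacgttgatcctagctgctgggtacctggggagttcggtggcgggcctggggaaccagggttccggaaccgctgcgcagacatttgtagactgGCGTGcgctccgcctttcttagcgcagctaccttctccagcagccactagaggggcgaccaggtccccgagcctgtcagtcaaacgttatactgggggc

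A window was found for 34 of the 38 members, and 26 of the 34 (76.5%) held the core element, against 7522 of 16802 windows (44.8%) over all genes of the count table that had one. By role the element was in 11 of 17 windows of glycolytic enzymes, 4 of 4 of regulatory kinases, 3 of 4 of carriers and 8 of 9 of HIF and its targets. Counted on both strands, *Ldha* and *Bnip3* had the most matches, 5 each. These include overlapping pairs, such as the matches 145 and 144 bases upstream of *Ldha*. A match in these letters is a description of the sequence and not a measured binding site.

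Levels were compared between genes in the authors' FPKM, which divides by gene length. In AL+PBS the most abundant members were *Aldoa* (aldolase A) at 1763 ± 49.7 FPKM and *Pkm* (pyruvate kinase) at 1321 ± 43.2 FPKM (SD, n = 3). They were followed by *Eno1* (enolase 1) at 792 ± 7.02 and *Ldha* (lactate dehydrogenase A) at 646 ± 10.3 FPKM. The other genes for these steps were well below, with *Aldoc*, *Eno2* and *Ldhb* at 153 ± 9.02, 173 ± 8.27 and 133 ± 13.2 FPKM. Among hexokinases *Hk1* was at 164 ± 12.3 and *Hk2* at 96.1 ± 1.23 FPKM, and among phosphofructokinases *Pfkp* was at 154 ± 11.5, *Pfkl* at 120 ± 6.9 and *Pfkm* at 42.3 ± 2.16 FPKM. *Gapdh* is uncertain. It had only 85.7 ± 60.1 FPKM, far below its neighbours in the pathway, it ran from 103 to 297 CPM within AL+PBS alone, its ratio of CPM to FPKM ran from 1.66 to 3.04 over the libraries, and its many processed pseudogenes could have divided its reads.

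The carriers and the HIF genes spanned a wide range of levels. *Bsg*, which encodes basigin, the chaperone that brings the monocarboxylate transporters to the membrane, was at 505 ± 7.66 FPKM in AL+PBS. The glucose transporter *Slc2a1* (GLUT1) was at 67.8 ± 3.00 FPKM and *Slc2a3* (GLUT3) at 16.3 ± 1.68 FPKM. The monocarboxylate transporters ran from *Slc16a1* (MCT1) at 50.8 ± 2.76 through *Slc16a8* (MCT3) at 29.2 ± 0.529 and *Slc16a3* (MCT4) at 18.5 ± 2.12 to *Slc16a7* (MCT2) at 1.11 ± 0.0526 FPKM. *Hif1a*, which encodes the HIF-1α subunit, was at 115 ± 8.9 FPKM. Of its targets, *Bnip3* (mitophagy receptor) at 85.6 ± 6.05 and *Vegfa* at 55.2 ± 6.8 FPKM were well expressed, while *Egln3* (a prolyl hydroxylase) at 1.42 ± 0.282 and *Adm* (adrenomedullin) at 0.341 ± 0.129 FPKM were low. *Car9*, a carbonic anhydrase gene widely used as a hypoxia marker, lay between 0 and 0.725 CPM over the 12 libraries and was not tested.

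**Figure D2:**
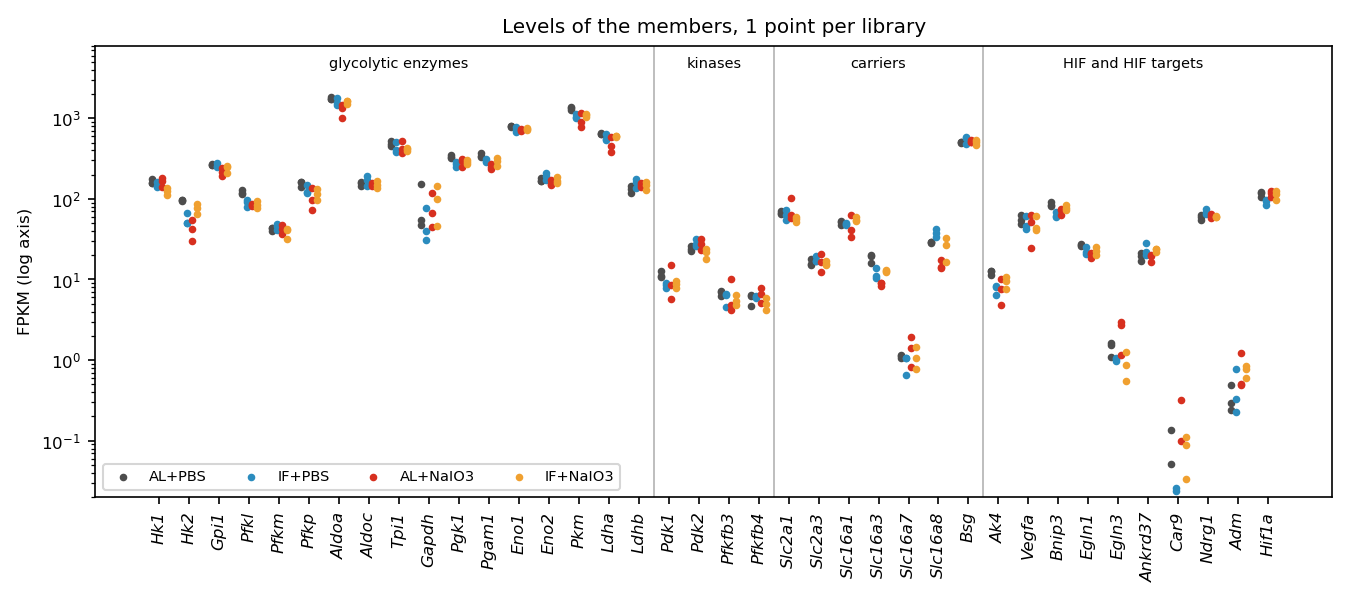
FPKM of each member on a log axis, with 1 point per library coloured by group and members ordered by role (values of 0 are not drawn). The glycolytic enzymes spanned from *Pfkm* at 42.3 FPKM to *Aldoa* at 1763 FPKM in AL+PBS, and *Car9* and *Adm* lay lowest.

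The effect of NaIO3 on free feeding was measured by comparing AL+NaIO3 with AL+PBS. *Slc16a8*, the RPE lactate exporter, fell by 1.02 on the log2 scale and was the 1 member that passed the test of edgeR (quasi-likelihood, adjusted p under 0.05 and fold change of at least 1.5). Most glycolytic enzymes were lower without passing it. The 3 libraries of AL+NaIO3 lay below the 3 of AL+PBS for 17 of the 37 members tested and above them for 0 members, against 8.32% of all tested genes that were lower without overlap and 9.8% that were higher. By role, 12 of 17 glycolytic enzymes, 2 of 7 carriers, 3 of 9 tested HIF genes and 0 of 4 kinases were lower without overlap. The median log2 fold change of the 17 enzymes was -0.35, that of the carriers -0.16, that of the kinases -0.09 and that of the 9 HIF genes -0.07, beside 0.01 over all tested genes. The HIF median changed sign, to 0.0211, without AL+NaIO3 replicate 3.

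*Slc16a8* (ENSMUSG00000032988, chromosome 15, 79251014 to 79254761 on GRCm38) had 62.3, 65.0 and 64.3 CPM in AL+PBS and 31.7, 29.1 and 33.2 CPM in AL+NaIO3. The groups were tight and far apart. Its log2 fold change was -1.02 (standard error, SE, 0.11, edgeR's adjusted p = 0.0392). Over all genes, 12 of 15612 (0.0769%) passed the same test. The call was lost (adjusted p between 0.0692 and 0.383 from edgeR) when any library other than AL+NaIO3 replicate 3 was left out, although the log2 fold change stayed between -1.04 and -0.97 in those fits. The RPE list (10 of 10 markers detected) summed to 2183 to 2357 CPM in AL+PBS and to 1405, 1170 and 2542 CPM in AL+NaIO3, where the pigment genes *Tyr*, *Pmel* and *Dct* raised replicate 3. *Rpe65*, the visual cycle isomerase, had 113, 103 and 142 CPM in AL+PBS and 51.3, 39.6 and 55.2 CPM in AL+NaIO3, and *Rgr*, an RPE opsin, had 547, 476 and 544 against 219, 143 and 210 CPM. *Rlbp1*, which Müller glia share, had 493 to 541 CPM in AL+PBS and 425 to 498 CPM in AL+NaIO3. The part of RPE cell content in the result was not tested.

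*Slc16a3*, which encodes MCT4, the exporter of highly glycolytic cells, had 78.9, 77.6 and 76.3 CPM in AL+PBS and 45.1, 37.8 and 33.1 CPM in AL+NaIO3. The highest injured library was below the lowest control. The log2 fold change was -0.999 (SE 0.13, edgeR's adjusted p = 0.0672), which did not pass. The other carriers overlapped between the groups. *Slc16a1* was the most spread, with 356, 210 and 158 CPM in AL+NaIO3 against 256, 282 and 284 CPM in AL+PBS, so the injured libraries lay on both sides of the controls. *Bsg* differed by -0.05 (SE 0.15, edgeR's adjusted p = 0.941) and *Slc2a1* by 0.07 (SE 0.22, edgeR's adjusted p = 0.938) on the log2 scale.

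*Hk2*, which commits glucose to glycolysis in photoreceptors, showed the lowest log2 fold change of the enzymes. It had 650, 644 and 641 CPM in AL+PBS and 384, 267 and 174 CPM in AL+NaIO3. The controls spanned a few percent of their level while the injured libraries spread widely, all below them. The log2 fold change was -1.22 (SE 0.27, edgeR's adjusted p = 0.242). Rod marker sums in the same 3 injured libraries were 63553, 36850 and 19378 CPM, so they descended in the same order, against 55175 to 58359 CPM in AL+PBS. In AL+NaIO3 replicate 1, whose rod sum was above every control, *Hk2* was below every control. The part of rod content in the *Hk2* difference was not tested. *Hk1*, the widely expressed hexokinase, overlapped between the groups, with a log2 fold change of -0.08 (SE 0.16, edgeR's adjusted p = 0.903).

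Further down the pathway the same 3 libraries were ordered alike for several enzymes. *Pkm*, which makes pyruvate, had 3711, 3869 and 3541 CPM in AL+PBS and 3450, 2351 and 1911 CPM in AL+NaIO3. *Ldha*, which makes lactate, had 1253, 1309 and 1242 CPM in AL+PBS and 1219, 811 and 634 CPM in AL+NaIO3. In both, replicate 1 was just under the controls and replicate 3 far under them. Their log2 fold changes were -0.52 (SE 0.26) and -0.51 (SE 0.25), with adjusted p-values of 0.539 and 0.530 from edgeR. *Pfkl*, a subunit of the rate-setting phosphofructokinase, differed in a tighter way, with 543, 531 and 499 CPM against 393, 320 and 316 CPM (log2 fold change -0.61, SE 0.14, edgeR's adjusted p = 0.259). *Pfkp*, the platelet-type subunit, had 936, 849 and 959 CPM against 431, 664 and 552 CPM (log2 fold change -0.73, SE 0.19, edgeR's adjusted p = 0.281), and here replicate 1 was the lowest. *Eno2*, the neuronal enolase, had the smallest difference of the 12 enzymes without overlap (log2 fold change -0.21, SE 0.13, edgeR's adjusted p = 0.617). *Ldhb*, the subunit that favours pyruvate, was the 1 enzyme above 0, at 0.09 (SE 0.13, edgeR's adjusted p = 0.841).

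Among HIF genes, *Ak4* had 61.4, 66.2 and 58.0 CPM in AL+PBS and 35.0, 22.1 and 37.2 CPM in AL+NaIO3. Each injured library was below each control, with a log2 fold change of -0.97 (SE 0.20, edgeR's adjusted p = 0.193). *Egln1*, the main oxygen-sensing prolyl hydroxylase, had 115, 120 and 121 CPM against 95.1, 75.2 and 81.0 CPM, a log2 fold change of -0.50 (SE 0.12, edgeR's adjusted p = 0.260). *Bnip3* was the third member without overlap and had the smallest difference of them, with 174, 199 and 172 CPM against 170, 127 and 134 CPM (log2 fold change -0.33, SE 0.15, edgeR's adjusted p = 0.495). *Hif1a* itself overlapped, with a log2 fold change of -0.02 (SE 0.17, edgeR's adjusted p = 0.978). *Vegfa* had 90.5, 151 and 169 CPM in AL+NaIO3 against 191, 157 and 170 CPM in AL+PBS. *Egln3* went the other way at low levels, with 3.98, 9.17 and 7.68 CPM against 5.23, 5.12 and 3.57 CPM, and did not pass (log2 fold change 0.59, SE 0.36, edgeR's adjusted p = 0.616). *Adm*, lower still, had the highest log2 fold change of the 9 tested HIF genes, at 1.08. It overlapped, at 0.782 to 1.83 against 0.353 to 0.819 CPM, and did not pass.

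How many members passed depended on the fit. In a joint fit of the 12 libraries, with 1 estimate of the spread for the 4 groups, 5 members were called (*Slc16a8*, *Slc16a3*, *Hk2*, *Ak4* and *Pfkl*), all lower, beside 1.11% of all genes. DESeq2 called these 5 and *Pfkp*, beside 2.64% of all genes. At an unadjusted p under 0.05 there were 8 of 37 members, beside 10.2% of all genes. Without AL+NaIO3 replicate 3, edgeR called 4 members (*Slc16a8*, *Slc16a3*, *Hk2* and *Ak4*), beside 0.572% of genes, and 23 members were lower without overlap, beside 15.2% of all genes with 2 libraries left in that group. Macrophage and microglia marker sums were 119 to 317 CPM in AL+NaIO3 against 53.6 to 56.1 CPM in AL+PBS, and endothelial sums 224 to 456 against 197 to 205 CPM. *Gfap*, the intermediate filament gene of reactive glia, had 112, 97.1 and 308 CPM in AL+NaIO3 and 12.3 to 23.0 CPM in AL+PBS. The other Müller glia markers were not alike. *Aqp4* was higher without overlap, at 216 to 305 against 180 to 212 CPM. *Glul* was lower without overlap, at 2095 to 2127 against 2520 to 2843 CPM, and the rest overlapped. Müller glia sums also overlapped, at 3080 to 3620 against 3436 to 3874 CPM. Their part in these results was not tested.

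**Figure D3:**
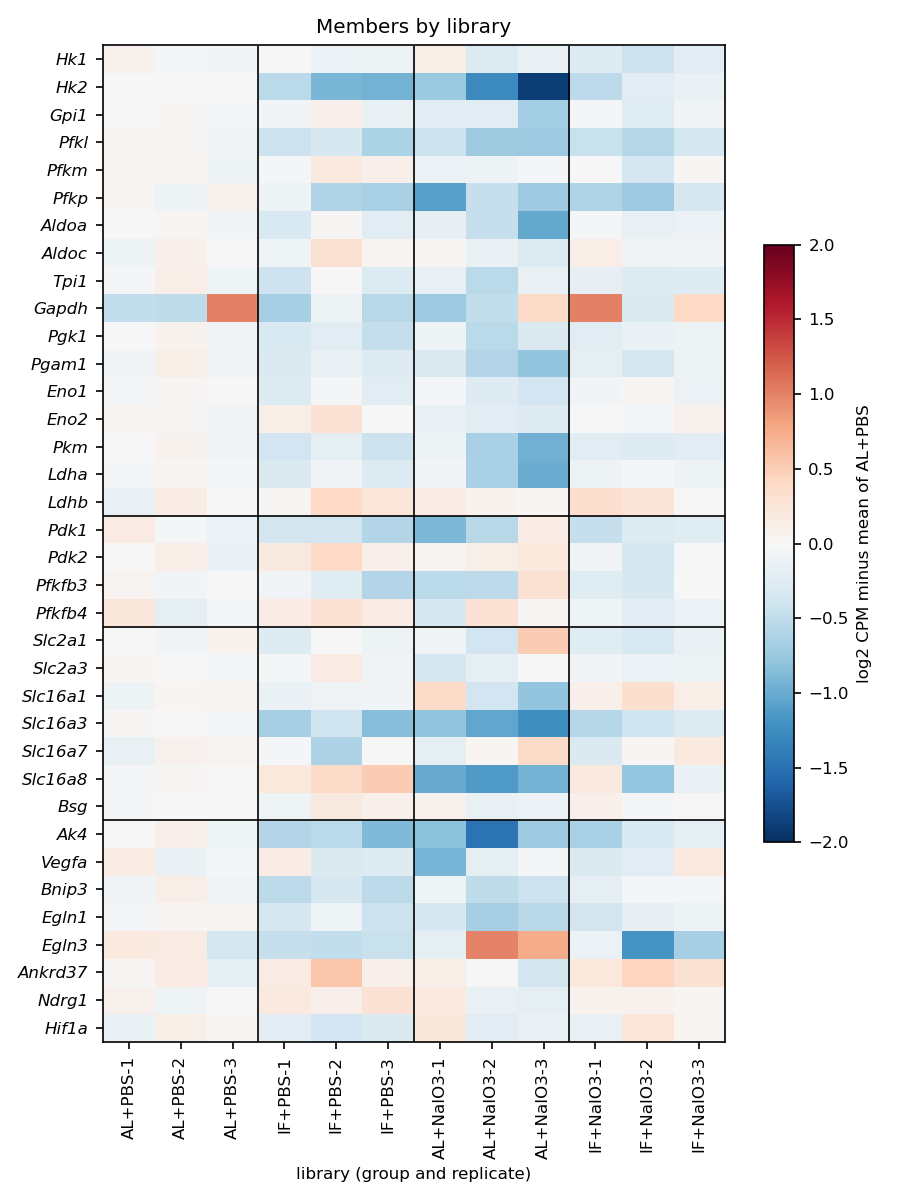
Log2 CPM of the members in each of the 12 libraries, less the mean of the 3 AL+PBS libraries, with members in rows by role and libraries in columns by group (*Car9* and *Adm*, near 0 counts, are left out). *Hk2*, *Slc16a3* and *Ak4* were below AL+PBS in each library of the other 3 groups, while *Slc16a8* was above it in the 3 IF+PBS libraries and below it in the 3 AL+NaIO3 libraries.

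Fasting without injury was measured by comparing IF+PBS with AL+PBS, which shares the 3 AL+PBS libraries with the comparison above. *Hk2*, *Slc16a3* and *Ak4* were lower in every fasted library, whereas *Slc16a8* was higher, and none passed. edgeR called 0 of 37 members, as it called 0 (0%) of 15361 genes, and 14 members had an unadjusted p under 0.05, beside 17.1% of all genes. Without overlap, 14 members were lower, beside 11.6% of all genes, and 2 were higher, beside 10.3%. The 14 were 7 of 17 enzymes, 5 of 9 tested HIF genes, 1 kinase and 1 carrier. The median log2 fold change was -0.20 for the enzymes, -0.27 for the 9 HIF genes, -0.09 for the carriers and -0.05 for the kinases, beside 0.01 over all tested genes.

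*Hk2* had 442, 341 and 333 CPM in IF+PBS, all below the 641 to 650 CPM of AL+PBS. The log2 fold change was -0.79 (SE 0.11, edgeR's adjusted p = 0.153). Rod marker sums were also lower without overlap, at 49074 to 53918 CPM in IF+PBS and 55175 to 58359 CPM in AL+PBS. The part of rod content in the *Hk2* difference was not tested. *Slc16a3* had 48.8, 58.9 and 42.7 CPM (log2 fold change -0.63, SE 0.12, edgeR's adjusted p = 0.153), and *Ak4* had 41.2, 42.6 and 33.5 CPM (log2 fold change -0.66, SE 0.11, edgeR's adjusted p = 0.153). *Pfkl* had 390, 418 and 338 CPM (log2 fold change -0.45, SE 0.10, edgeR's adjusted p = 0.175). Each fasted library was thus below each AL+PBS library for these genes.

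*Hif1a* was at 539, 483 and 519 CPM in IF+PBS and 577, 683 and 640 CPM in AL+PBS, without overlap (log2 fold change -0.30, SE 0.09, edgeR's adjusted p = 0.194). *Bnip3* (126, 146 and 126 CPM) was also below every AL+PBS library, at -0.45 (SE 0.10, edgeR's adjusted p = 0.175). *Pdk1*, a kinase that restrains pyruvate dehydrogenase, had 54.2, 53.8 and 46.5 CPM against 78.0, 67.8 and 64.3 CPM, at -0.44 (SE 0.11, edgeR's adjusted p = 0.175). *Egln1*, at 88.2 to 112 CPM against 115 to 121 CPM, and *Egln3*, at 3.22 to 3.35 CPM against 3.57 to 5.23 CPM, were also lower without overlap. Some targets did not share that direction. *Ndrg1* had 238, 225 and 254 CPM against 222, 196 and 209 CPM, at 0.20 (SE 0.09, edgeR's adjusted p = 0.294). *Ankrd37* lay at 20.6 to 28.3 CPM against 16.9 to 21.7 CPM, overlapping.

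*Slc16a8* had 73.5, 83.5 and 90.6 CPM in IF+PBS, above the 62.3 to 65.0 CPM of AL+PBS, a log2 fold change of 0.37 (SE 0.10, edgeR's adjusted p = 0.178). The RPE marker sum was 2384 to 2975 CPM in IF+PBS and 2183 to 2357 CPM in AL+PBS, without overlap, but its genes were not alike. *Rgr* had 637, 610 and 652 CPM against 476 to 547 CPM, *Rpe65* overlapped at 137 to 145 CPM against 103 to 142 CPM, and the pigment gene *Tyr* was lower, at 7.94 to 9.20 CPM against 10.2 to 12.4 CPM. *Eno1*, with the smallest difference among the enzymes without overlap, had 1588, 1869 and 1666 CPM against 1894, 1964 and 1910 CPM (log2 fold change -0.17, SE 0.08, edgeR's adjusted p = 0.319). The sums of other cell types differed too. Skeletal muscle markers were at 23.5 to 112 CPM in IF+PBS and 153 to 324 CPM in AL+PBS, fibroblast markers at 68.6 to 119 and 145 to 217 CPM, and Müller glia markers at 3094 to 3189 and 3436 to 3874 CPM. Corneal markers were at 8.83 to 24.4 and 40.8 to 82.7 CPM, lens markers at 3.14 to 3.87 and 6.06 to 179 CPM, erythrocyte markers at 41.6 to 57.2 and 65.2 to 84.9 CPM, and the endothelial sum at 178 to 179 and 197 to 205 CPM, in the same order of groups. The endothelial genes were not alike. *Kdr* was lower without overlap, at 128 to 130 against 155 to 164 CPM. *Esam* was higher without overlap, at 15.2 to 19.3 against 9.79 to 13.1 CPM. So was *Plvap*, at 17.7 to 19.1 against 12.7 to 17.2 CPM, and the rest overlapped. *Pfkm*, the muscle-type phosphofructokinase, was at 144 to 170 CPM against 139 to 154 CPM. The part of tissue composition was not tested.

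DESeq2 called 3 members here (*Hk2*, *Slc16a3* and *Ak4*), beside 1.33% of all genes, and the fit of the 12 libraries called 0 members and 0% of genes. Without IF+PBS replicate 1, whose *Hk2* was the highest of its group, edgeR called 4 members (*Hk2*, *Slc16a3*, *Ak4* and *Pfkp*), beside 3.03% of genes.

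**Figure D4:**
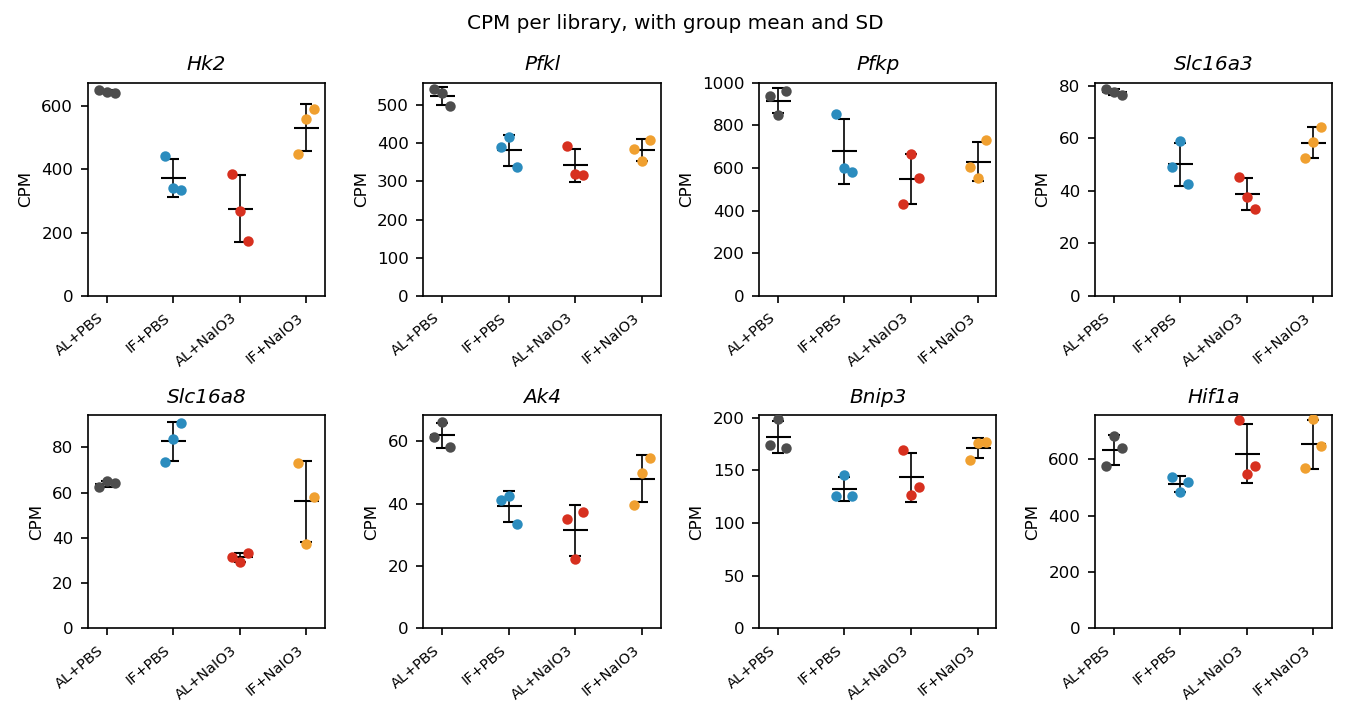
CPM of 8 members per library, with group means (horizontal bars) and SD (error bars, n = 3) on axes that start at 0. The 3 AL+PBS libraries sit at 641 to 650 CPM for *Hk2* and 76.3 to 78.9 CPM for *Slc16a3*, above every library of the other 3 groups, and *Slc16a8* is lowest in AL+NaIO3 (29.1 to 33.2 CPM).

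Fasted and freely fed mice after injury were compared as IF+NaIO3 against AL+NaIO3, which shares the AL+NaIO3 libraries with the first comparison, so a low value in those libraries enters both. *Hk2*, *Slc16a3*, *Slc16a8* and *Ak4* were higher in every fasted library, and none passed. edgeR called 0 of 37 members, beside 0.0383% of genes (6 of 15648), and 5 members had an unadjusted p under 0.05, beside 11.7% of genes. Without overlap, 7 members were higher, beside 8.68% of all genes, and 1 was lower, beside 10.2%. Of the 7, 3 were enzymes, 2 carriers and 2 HIF genes. The median log2 fold change was 0.19 for the 17 enzymes, 0.08 for the carriers, 0.23 for the 9 HIF genes and -0.08 for the kinases, beside -0.01 over all tested genes.

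*Hk2* had 447, 558 and 589 CPM in IF+NaIO3 and 384, 267 and 174 CPM in AL+NaIO3, a log2 fold change of 0.94 (SE 0.28, edgeR's adjusted p = 0.293). *Slc16a8* had 73.0, 37.5 and 58.0 CPM in IF+NaIO3, a log2 fold change of 0.83 (SE 0.23, edgeR's adjusted p = 0.262). Its fasted libraries were unequal, and *Rpe65* followed the same order in them, at 133, 58.6 and 88.9 CPM, each above the 39.6 to 55.2 CPM of AL+NaIO3. *Rgr* was also higher without overlap, at 223 to 447 against 143 to 219 CPM. *Dct* and *Best1* of the same list were lower without overlap. *Dct* had 81.8 to 132 against 134 to 776 CPM, and *Best1* 0.276 to 0.633 against 0.675 to 1.42 CPM. The other RPE markers overlapped, as did the RPE sums, at 1252 to 2187 against 1170 to 2542 CPM. The part of RPE cell content in this difference was not tested. *Slc16a3* had 52.3, 58.6 and 64.1 CPM (log2 fold change 0.59, SE 0.15, edgeR's adjusted p = 0.238) and *Ak4* 39.6, 49.9 and 54.5 CPM (log2 fold change 0.60, SE 0.22, edgeR's adjusted p = 0.363). All the fasted libraries of these 2 genes were above the injured libraries of freely fed mice and below the AL+PBS libraries.

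The remaining members without overlap differed less. *Aldoa* had 3068, 2800 and 2880 CPM against 2774, 2259 and 1529 CPM (log2 fold change 0.41, SE 0.26, edgeR's adjusted p = 0.564). *Eno2* had 493, 475 and 522 CPM against 440, 421 and 409 CPM (log2 fold change 0.23, SE 0.14, edgeR's adjusted p = 0.550). *Ankrd37*, a HIF target of the ankyrin repeat family, had 22.4, 26.1 and 23.8 CPM against 21.1, 19.1 and 14.9 CPM (log2 fold change 0.39, SE 0.18, edgeR's adjusted p = 0.446). *Pdk2*, a kinase that restrains pyruvate dehydrogenase, was the 1 member lower without overlap, with 61.6, 51.1 and 65.4 CPM against 67.2, 69.8 and 74.6 CPM (log2 fold change -0.26, SE 0.13, edgeR's adjusted p = 0.486). *Egln3*, at 4.20, 1.96 and 2.86 CPM against 3.98, 9.17 and 7.68 CPM, had the lowest log2 fold change of the members, at -1.21 (SE 0.42, edgeR's adjusted p = 0.354), with overlap.

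In the fit of the 12 libraries *Slc16a8* was the 1 member called, beside 1.19% of genes, and DESeq2 called 3 members (*Slc16a8*, *Hk2* and *Slc16a3*), beside 3.06% of genes. Without AL+NaIO3 replicate 3, edgeR called 0 members and 75 of 15740 genes. With 2 libraries left in that group, 11 members were higher without overlap, beside 12.2% of all genes, and 1 was lower, beside 13.3%. Rod marker sums were 53503 to 60213 CPM in IF+NaIO3 against 19378 to 63553 CPM in AL+NaIO3, macrophage and microglia sums 43.4 to 63.7 against 119 to 317 CPM, and endothelial sums 167 to 195 against 224 to 456 CPM. *Gfap* had 10.7, 13.4 and 15.7 CPM in IF+NaIO3 against 97.1 to 308 CPM in AL+NaIO3. Of the other Müller glia markers, *Aqp4* was lower without overlap, at 152 to 203 against 216 to 305 CPM. *Glul* was higher without overlap, at 2303 to 2335 against 2095 to 2127 CPM, and the rest overlapped. Müller glia sums also overlapped, at 3204 to 3243 against 3080 to 3620 CPM. Their part in these results was not tested.

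NaIO3 under fasting was compared as IF+NaIO3 against IF+PBS, none of whose libraries entered the comparison on free feeding. *Hk2* and *Bnip3* were higher after injury and *Slc16a8* lower, and none passed. edgeR called 0 of 37 members and 0 (0%) of 15305 genes, and 9 members had an unadjusted p under 0.05, beside 15.2% of genes. Without overlap, 4 members were higher, beside 10.2% of genes, and 5 lower, beside 10.7%. The median log2 fold change was 0.00 for the enzymes, -0.04 for the carriers, -0.12 for the kinases and 0.07 for the 9 HIF genes, beside 0.00 over all tested genes.

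*Hk2* was above each IF+PBS library (333 to 442 CPM) in each IF+NaIO3 library (447 to 589 CPM), a log2 fold change of 0.52 (SE 0.14, edgeR's adjusted p = 0.212). *Hk1* was below, with 618, 547 and 628 CPM against 744, 677 and 690 CPM, at -0.23 (SE 0.09, edgeR's adjusted p = 0.285). *Slc16a1*, the widely expressed MCT1, had 294, 340 and 299 CPM against 250, 261 and 263 CPM, at 0.27 (SE 0.09, edgeR's adjusted p = 0.233). The 2 hexokinase genes thus differed in opposite directions, neither passing the test. *Slc16a8* had 37.5 to 73.0 CPM against 73.5 to 90.6 CPM, at -0.55 (SE 0.20, edgeR's adjusted p = 0.261), and its highest injured library lay just under the lowest control. *Rpe65* lay at 58.6 to 133 CPM against 137 to 145 CPM in the same libraries, and the RPE sum at 1252 to 2187 against 2384 to 2975 CPM. Other marker sums also differed without overlap, with cone markers at 1162 to 1257 against 998 to 1055 CPM, erythrocyte markers at 71.7 to 98.6 against 41.6 to 57.2 CPM, corneal markers at 25.7 to 166 against 8.83 to 24.4 CPM, Müller glia markers at 3204 to 3243 against 3094 to 3189 CPM, and inner retinal neuron markers at 1343 to 1420 against 1451 to 1653 CPM. The Müller glia genes were not alike. *Aqp4* was higher without overlap, at 152 to 203 against 123 to 147 CPM. *Kcnj10* was lower without overlap, at 57.8 to 66.6 against 68.6 to 71.2 CPM, and the rest overlapped. The part of cell content in this comparison was not tested.

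*Bnip3* had 160, 176 and 177 CPM against 126, 146 and 126 CPM, at 0.37 (SE 0.10, edgeR's adjusted p = 0.212), and *Hif1a* had 571, 745 and 648 CPM against 483 to 539 CPM, at 0.35 (SE 0.11, edgeR's adjusted p = 0.223). Both were higher in every injured library. The kinases *Pdk2* (log2 fold change -0.36, SE 0.12, edgeR's adjusted p = 0.242) and *Pfkfb4* (-0.34, SE 0.12, edgeR's adjusted p = 0.250) were lower without overlap. *Ndrg1* had 218, 220 and 214 CPM against 225 to 254 CPM, at -0.13 (SE 0.09, edgeR's adjusted p = 0.487). DESeq2 called 0 members, beside 0.723% of genes, and the fit of the 12 libraries 0 members and 0% of genes. Without IF+PBS replicate 1, edgeR called *Hk2* alone, beside 1.27% of genes.

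**Figure D5:**
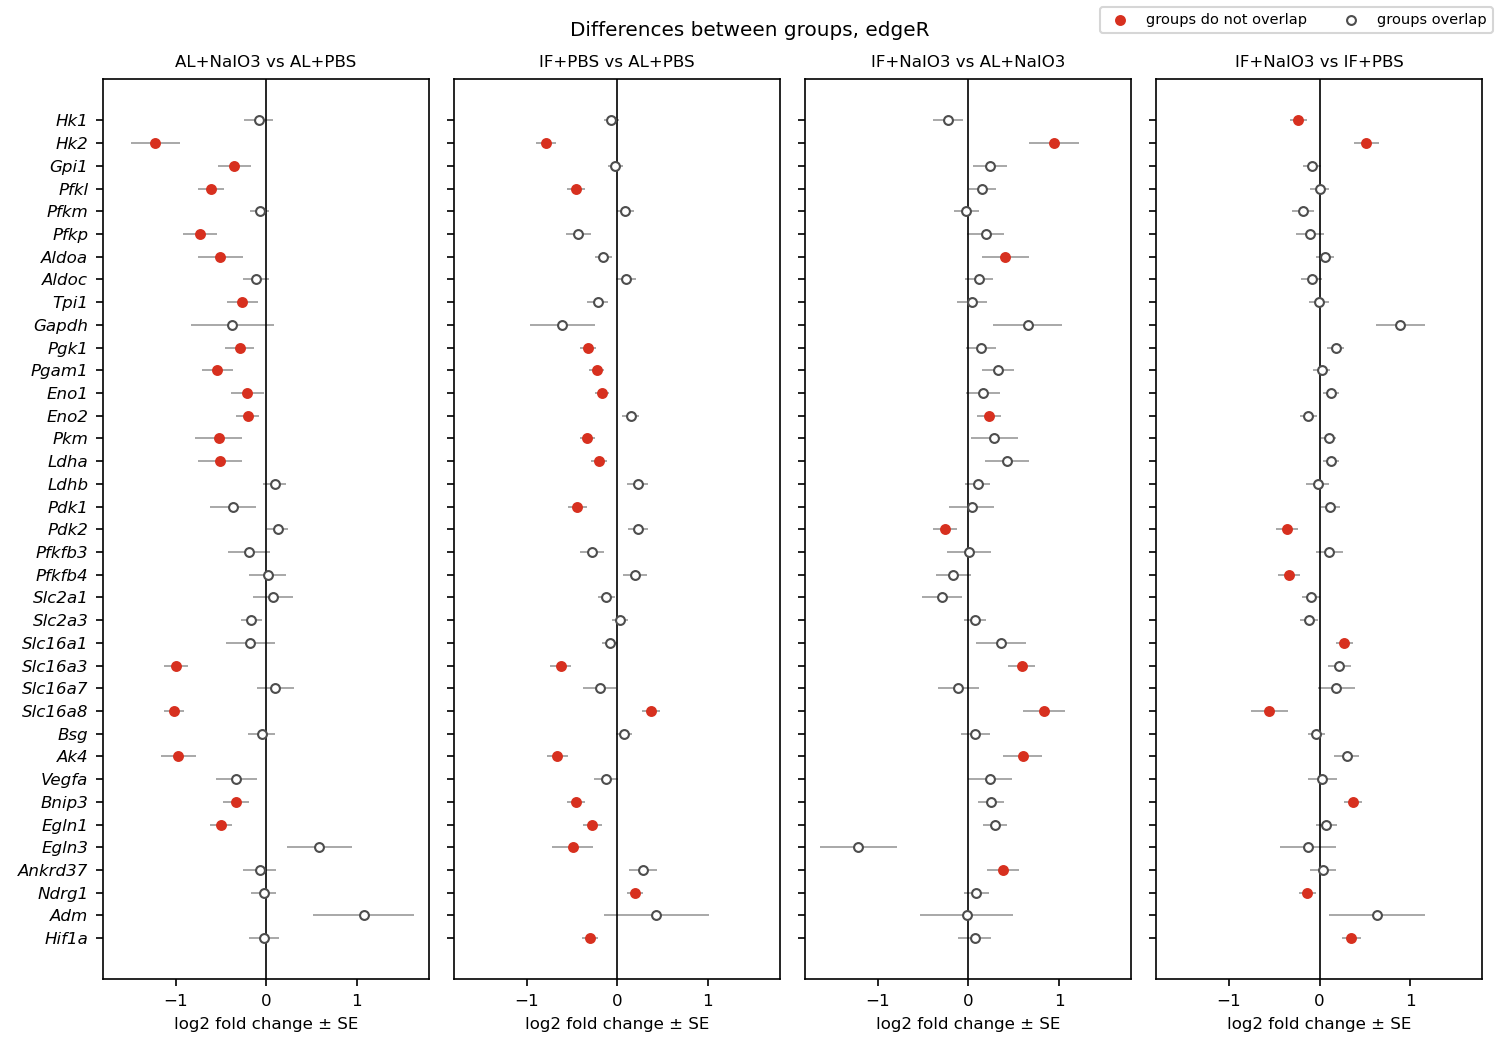
Log2 fold change of each tested member in the 4 comparisons, with the SE as a horizontal bar and filled points where the 3 libraries of each group do not overlap. Filled points lie mostly below 0 in AL+NaIO3 against AL+PBS (17 of 17) and in IF+PBS against AL+PBS (14 of 16). They lie mostly above 0 in IF+NaIO3 against AL+NaIO3 (7 of 8). In IF+NaIO3 against IF+PBS, 4 lie above 0 and 5 below. Over all tested genes, 8.32%, 11.6%, 10.2% and 10.7% were lower without overlap in these 4 comparisons, in this order. The shares that were higher were 9.8%, 10.3%, 8.68% and 10.2%.

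Whether NaIO3 acted differently under the 2 diets was tested as the interaction over the 12 libraries, where a positive value means that the change on fasting lay above the change on free feeding. The highest values were those of *Hk2*, at 1.74 (SE 0.33, edgeR's adjusted p = 0.0951), *Ak4*, at 1.28 (SE 0.26, edgeR's adjusted p = 0.113), and *Slc16a3*, at 1.23 (SE 0.20, edgeR's adjusted p = 0.0707). None passed. edgeR called 0 of 37 members, beside 0.0313% of genes (5 of 15970), and 12 members had an unadjusted p under 0.05, beside 12% of genes. DESeq2 called 5 members (*Hk2*, *Slc16a3*, *Ak4*, *Pfkl* and *Bnip3*), all positive, beside 1.42% of genes. *Slc16a8* differed less between the diets, at 0.47 (SE 0.26, edgeR's adjusted p = 0.463). The median was 0.48 over the 17 enzymes, 0.37 over 9 HIF genes, 0.10 over the carriers and -0.02 over the kinases, beside -0.02 over all genes. The count of 0 from edgeR became 9 without AL+NaIO3 replicate 1, beside 2.26% of genes, 3 without AL+NaIO3 replicate 3, beside 0.199%, and 1 (*Slc16a3*) without IF+PBS replicate 2, where 5 of 16226 genes were called. It stayed at 0 when any other library was left out.

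Ratios of isozymes within a library do not depend on its total. However, the ratio of CPM to FPKM varied between libraries for the genes used here. Its highest value over its lowest ran from 1.03 for *Ldhb* to 1.29 for *Pfkp*, and was 1.25 for *Slc16a3*. *Hk1* over *Hk2*, from FPKM, was 1.71 ± 0.11 in AL+PBS, 2.69 ± 0.221 in IF+PBS, 4.13 ± 1.63 in AL+NaIO3 and 1.66 ± 0.276 in IF+NaIO3 (SD, n = 3). The AL+NaIO3 libraries had 3.07, 3.31 and 6.01, so replicate 3 raised the mean, yet each was above each library of the other 3 groups (exact permutation test, two-sided p = 0.1 against AL+PBS and against IF+NaIO3). *Ldha* over *Ldhb* was 4.90 ± 0.415 in AL+PBS, 3.66 ± 0.309 in IF+PBS, 3.22 ± 0.894 in AL+NaIO3 and 4.10 ± 0.416 in IF+NaIO3. It was lower than in AL+PBS in both IF+PBS and AL+NaIO3, 2 comparisons with the same controls (p = 0.1 for each, two-sided exact permutation test), and the NaIO3 groups overlapped (p = 0.3 in the same exact test). *Pfkl* over *Pfkm* followed the same pattern, with 2.84 ± 0.0897 in AL+PBS, 1.96 ± 0.242 in IF+PBS, 1.99 ± 0.24 in AL+NaIO3 and 2.24 ± 0.177 in IF+NaIO3. *Slc16a1* over *Slc16a3*, MCT1 over MCT4, was 2.77 ± 0.41 in AL+PBS and between 4.18 and 5.21 on average in the other groups. In all, 9 such ratios were computed. *Aldoa* over *Aldoc* was lower and *Slc16a1* over *Slc16a8* higher in each AL+NaIO3 library than in each AL+PBS library (p = 0.1 for each, two-sided exact permutation test). The other 3 overlapped between these groups, with p = 0.8 for *Pfkp* over *Pfkl*, 0.8 for *Eno1* over *Eno2* and 0.6 for *Slc2a1* over *Slc2a3* in the same exact test.

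Genes of the same pathways outside the module were counted from lists that were also written with earlier results known. They held 29 further genes of glycolysis and pyruvate use, 23 further glucose and monocarboxylate carriers and 32 further genes of the HIF pathway. edgeR called 0 of them in each of the 4 comparisons and in the interaction. In AL+NaIO3 against AL+PBS, 2 of 25 tested glycolysis genes, 1 of 20 carriers and 9 of 31 HIF genes had an unadjusted p under 0.05, beside 10.2% of all genes. The counts in the same order were 1, 2 and 6 in IF+NaIO3 against AL+NaIO3, beside 11.7%. They were 4 of 25, 3 of 19 and 8 of 31 in IF+PBS against AL+PBS, beside 17.1%, and 5 of 25, 1 of 18 and 8 of 31 in IF+NaIO3 against IF+PBS, beside 15.2%. For the interaction they were 6 of 26, 2 of 21 and 11 of 31, beside 12%. DESeq2 called 0 to 3 genes in each list and comparison, where it called 0.723% to 3.06% of all genes. Without overlap in AL+NaIO3 against AL+PBS, 5 of 25 glycolysis genes, 0 of 20 carriers and 8 of 31 HIF genes were lower, and 2, 3 and 2 were higher, beside 8.32% and 9.8% of all genes. Their medians were -0.01, 0.22 and -0.07 on the log2 scale. In IF+PBS against AL+PBS, 4 of 25, 3 of 19 and 7 of 31 were lower and 1, 2 and 3 higher, beside 11.6% and 10.3%. In IF+NaIO3 against AL+NaIO3, 5 of 25, 2 of 20 and 6 of 31 were higher and 2, 4 and 2 lower, beside 8.68% and 10.2%. For IF+NaIO3 against IF+PBS the higher ones were 5 of 25, 1 of 18 and 5 of 31, and the lower ones 1, 2 and 3, beside 10.2% and 10.7%. Many of these counts lie near the share of all genes. At an unadjusted p under 0.05 the HIF list was above that share in each comparison and in the interaction, an excess that was not tested.

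The gene of each of these 3 lists with the log2 fold change farthest from 0 is given for each comparison. *Hk3*, the hexokinase of myeloid cells, had 0.449, 0.236 and 0.328 CPM in AL+PBS and 1.06, 1.17 and 4.49 CPM in AL+NaIO3 (log2 fold change 2.74, SE 0.70, edgeR's adjusted p = 0.276). It was highest in the library with the highest macrophage and microglia sum. *Lox*, a collagen cross-linking enzyme, had 1.48, 1.63 and 16.6 CPM in AL+NaIO3 and 0.642 to 2.33 CPM in AL+PBS (log2 fold change 2.25, edgeR's adjusted p = 0.498), and was highest in the library with the highest fibroblast sum. The part of these cells in both genes was not tested. *Slc16a12*, which encodes a creatine transporter, had a log2 fold change of 1.44 (edgeR's adjusted p = 0.377), with 7.20 CPM in that library. In IF+NaIO3 against AL+NaIO3 the genes were *Lox* (-3.21, edgeR's adjusted p = 0.296), *Slc2a10* (-1.93, 0.499) and *Hk3* (-1.37, 0.457), each with its highest AL+NaIO3 value in replicate 3. In IF+PBS against AL+PBS they were *Hk3* (1.28, edgeR's adjusted p = 0.253), *Apln* (-0.92, 0.284) and *Slc5a1* (-0.90, 0.268), and in IF+NaIO3 against IF+PBS *Slc5a1* (1.11, edgeR's adjusted p = 0.429), *Edn1* (1.07, 0.240) and *Ldhd* (0.87, 0.294). For the interaction they were *Lox* (-3.15, edgeR's adjusted p = 0.354), *Hk3* (-2.63, 0.286) and *Slc2a9* (-1.69, 0.431).

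The fit of the 12 libraries called 2 related genes, both in IF+NaIO3 against AL+NaIO3. *Hkdc1*, a hexokinase-like gene, had 9.67, 10.9 and 10.1 CPM in IF+NaIO3 against 15.4, 26.9 and 34.5 CPM in AL+NaIO3. *P4ha1*, a collagen prolyl hydroxylase and HIF target, had 85.3, 98.0 and 97.0 CPM against 66.7, 58.2 and 61.8 CPM. Neither overlapped, and on the 6 libraries alone the log2 fold changes were -1.34 (SE 0.29, edgeR's adjusted p = 0.191) and 0.58 (SE 0.11, edgeR's adjusted p = 0.168).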

How the data were processed

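RNA-seq was measured in 12 libraries. Per the methods, the authors poly-A selected the RNA and sequenced single-end 150-bp reads, though on a platform they call PE150. The labels say PE150 and a stranded kit. Per the methods the reads were mapped to GRCm39, but the deposited coordinates are those of GRCm38, as used here. The submitters' processing notes name HISAT2, StringTie, DESeq2 and edgeR. The counting tool and its strand setting are not given in the sources used here. The authors deposited whole-number counts per gene without normalization, and FPKM values that they scaled by gene length and reads. FPKM served to set genes side by side and for isozyme ratios. A deposited table of the authors' own comparison of IF+NaIO3 with AL+NaIO3 (fold changes and p-values) was not used.

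Counts were scaled by TMM over the 12 libraries to CPM and tested with edgeR 4.0.16 in R 4.3.3 (filterByExpr, quasi-likelihood, Benjamini-Hochberg adjustment over all genes tested) on the 6 libraries of each pair, and the interaction on the 12. A call needed a fold change of 1.5 or more with an adjusted p below 0.05, and in the interaction the p alone. The standard error is the absolute log2 fold change divided by the square root of F. Groups do not overlap where each library of one lies beyond each of the other. Named in full were, by role and comparison, the members with the highest and lowest log2 fold change among those without overlap, and every called member. From each related list the gene with the largest difference was named. Other members were chosen after their values were seen. Of the 2 *Aldoa* rows the one with more reads was used. Promoter windows are RefSeq's on GRCm38.p6, the one nearest to the gene's 5′ end in the files. Alternatives were DESeq2 1.42.0, upper quartile scaling, no filter, a minimum of 10 counts, a fit of the 12 libraries, the replicate number as a block, no fold threshold and leaving out each library. The code was tested on simulated data. Members and lists were chosen with earlier results of these data known. The labels do not say how animals were housed or handled in batches, so p-values measure the spread between these mice. The chi-square per gene between libraries of a group was at least 13.2, so no pair within a group was a duplicate. No per-sample column was left unassigned.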

Additional observations from a re-analysis of the deposited data

Results flagged for a closer look

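*Hk2* and *Bnip3* were lower in every AL+NaIO3 library than in every AL+PBS library, and higher in every IF+NaIO3 library than in every IF+PBS library, so the 2 diets went opposite ways. They were flagged for this pattern, and the share of all genes that show it is not given. Taken alone, 8.32% of all tested genes were lower without overlap on free feeding, and 10.2% higher without overlap on fasting. The interaction of *Hk2* was 1.74 on the log2 scale (edgeR's adjusted p = 0.0951), and that of *Bnip3* was 0.71 (edgeR's adjusted p = 0.223), so the difference between the diets did not pass the test for either. DESeq2 called both. In both genes the IF+PBS libraries also lay below the AL+PBS libraries (edgeR's adjusted p = 0.153 for *Hk2* and 0.175 for *Bnip3*), and the part of this in the opposite directions was not tested. Groups of 3 were not tested for single outlying libraries.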

How the results depend on the processing

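Values below are counts of called members unless named otherwise. In AL+NaIO3 against AL+PBS the count of 1 became 6 with DESeq2, 5 in the fit of the 12 libraries and 0 with the replicate number as a block (*Slc16a8*, adjusted p = 0.0774 from edgeR, with 28 of 15612 genes called), and ranged from 0 to 4 when a library was left out. In IF+NaIO3 against AL+NaIO3 the count of 0 became 3 with DESeq2 and 1 in the fit of the 12 libraries. In IF+PBS against AL+PBS the count of 0 became 3 with DESeq2 and ranged from 0 to 4 when a library was left out. In IF+NaIO3 against IF+PBS it ranged from 0 to 1 when a library was left out. For the interaction the count of 0 became 5 with DESeq2 and 1 (*Slc16a3*) without a filter on low counts (13 of 18927 genes called), and ranged from 0 to 9 when a library was left out, with 1 without IF+PBS replicate 2 (5 of 16226 genes called). The cause of these changes was not tested. Upper quartile scaling, the stricter filter and no fold threshold gave the same counts. No result changed sign in a called value.

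The median of the HIF genes moved without the filter, to 0.17 in IF+NaIO3 against AL+NaIO3 and 0.19 in IF+NaIO3 against IF+PBS, as more genes were tested. Leaving out 1 library at a time, the median of the HIF genes ranged from -0.18 to 0.0211 in AL+NaIO3 against AL+PBS, from 0.16 to 0.29 in IF+NaIO3 against AL+NaIO3, from -0.30 to -0.21 in IF+PBS against AL+PBS and from 0.00417 to 0.19 in IF+NaIO3 against IF+PBS, and that of the carriers from -0.21 to -0.0871 in AL+NaIO3 against AL+PBS and from 0.0489 to 0.16 in IF+NaIO3 against AL+NaIO3.

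Libraries with the same replicate number did not deviate together (correlations between -0.101 and 0.138 over genes), so the numbers were not taken as pairs. The block changed no other count. *Car9* had at most 27 counts in a library and *Adm* at most 68, so counting error is largest for these members.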
